A study of Homo sapiens with 45 samples.

Results

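The regions described here are the sites in HEK293T cells, an established human embryonic kidney line, at which CTCF, MBD2, MBD3 and TET1 were all listed under the solvent DMSO. A CTCF region of the DMSO list counted when it overlapped a region of each of the other 3 DMSO lists by 1 bp or more. The rule found 4016 of 17440 CTCF regions (23.0%), and these are called 4-protein regions. They were chosen by measured values of the 4 DMSO lists, so every value from those lists is a description without a test.

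The series compared cells treated for 72 h with 30 µM BPK25, with 0.5 mM IAA or with DMSO. BPK25 is a small molecule known from T cells to cause loss of NuRD subunits. The labels do not name the protein on which IAA acts, and they do not say whether the cells of a group carried an edited gene. Each treatment and antibody had 3 ChIP-seq libraries, and the authors pooled them before calling peaks. The analysis therefore rests on 12 pooled lists with 53743 regions in total, in hg19 coordinates, with no replicate error for any value. Shares carry 95% Wilson intervals where given, and these reflect the number of regions and nothing else.

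CTCF is a zinc finger protein that binds a long DNA motif, blocks enhancers at insulators and holds the anchors of chromatin loops together with cohesin. MBD2 and MBD3 belong to the NuRD complex, which joins a nucleosome remodelling ATPase with histone deacetylases, and the complex holds either MBD2 or MBD3. MBD2 binds methylated CpG, whereas mammalian MBD3 has little such preference. TET1 oxidises methylated cytosine and so opens the way to its removal. An overlap of pooled lists does not show that the 4 proteins sat on the same DNA molecule or in the same cell.

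The 4-protein regions made up a different share of each list. They held 25.2% of the 15991 MBD2 regions, 39.7% of the 10137 MBD3 regions and 55.9% of the 7211 TET1 regions. The shortest list, that of TET1, thus gave most of its regions to these sites. Among CTCF regions with MBD3 and TET1, 93.1% also had MBD2. Among those with MBD2 and TET1, 76.6% also had MBD3, and among those with MBD2 and MBD3, 58.5% also had TET1. TET1 was accordingly the protein that most of the remaining regions lacked. Of the 4367 CTCF regions with 2 of the 3 partners, 65.2% lacked TET1, 28.0% lacked MBD3 and 6.78% lacked MBD2. A further 4974 CTCF regions had 1 partner and 4083 had none.

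Fold enrichment is the authors' ratio of the pileup of fragments at the summit to the local background. The local background was recovered from this fold and the −log10 p of each region. The smallest background of the CTCF list was 4.35 fragments, and a background of up to 3 times that value is called low. By this measure 3337 of the 4-protein regions had a low background, 651 a raised one, and 28 of very high significance could not be solved. Raised background was found at 16.2% of 4-protein regions and at 8.70% of the CTCF regions with fewer than 3 partners. Results are therefore given for low and raised background where the difference matters.

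The strongest regions of every list lay mostly at 4-protein regions. They held 62.2% of the top 10% of CTCF regions by fold enrichment, 65.2% of the top 10% of MBD2 regions, 76.0% of the MBD3 ones and 81.9% of the TET1 ones. Split into 10 classes of CTCF fold, the share of CTCF regions that were 4-protein regions was 9.84% in the lowest class, 7.25% in class 2, 16.6% in class 5 and 62.7% in the highest. The lowest class broke the order. Of its regions, 25.3% lay on raised background against 5.10% in the highest class. Among regions of low background the lowest class had 4.28% and the highest 60.6%.

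**Figure D1:**
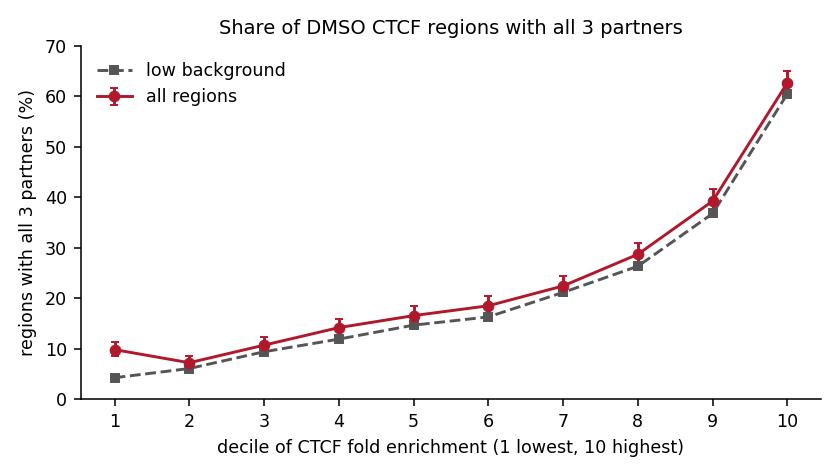
Share of DMSO CTCF regions with an MBD2, an MBD3 and a TET1 region (vertical axis, %) by decile of CTCF fold enrichment (horizontal axis, 1 lowest). Red points are all regions with 95% Wilson intervals, grey squares are regions of low background; the red share is 9.84% in the lowest decile and 62.7% in the highest.

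The 4-protein regions were wider and taller in CTCF than the rest. Their median CTCF fold was 5.31, against 4.54 with 2 partners, 4.13 with 1 and 3.64 with none. The median pileup was 51 fragments at 4-protein regions and 35 fragments at CTCF regions with fewer than 3 partners. The median width was 295.5 bp against 241 bp, and more than 1 CTCF sub-peak was called in 5.45% against 1.36%. The rule used these same lists, so these differences are a description. A taller region may have more chance of being listed in each of 4 lists, which was not tested.

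Folds of different lists are not on 1 scale, since each is relative to the background of its own list. Within the 4-protein regions the median CTCF fold was 5.31, the MBD2 fold 5.49, the MBD3 fold 4.33 and the TET1 fold 3.60. These medians order the lists, not the amounts of protein. The pileups differed less than the folds, with medians of 51 fragments in the CTCF list, 47 with MBD2 and 45 with MBD3 or TET1. The local backgrounds ran the other way, with a median of 11.6 fragments in the TET1 list, 9.67 in the MBD3 list, 8.77 in the CTCF list and 7.74 in the MBD2 list. The smallest backgrounds of the whole lists had the same order, at 5.68, 4.72, 4.35 and 3.77 fragments. The order is thus that of the lists and not particular to these regions.

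The folds of the 4 proteins were high and low at the same regions. Spearman's correlation, which uses the ranks of the folds within each list, lay between 0.71 and 0.75 over the 6 pairs of lists, and between 0.65 and 0.71 among the 3337 regions of low background. These are correlations across regions, which are not replicates. The series holds 3 DMSO input libraries for the 4 DMSO lists, so the lists may share them. The labels do not say which inputs served as control.

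At low background the pileup of CTCF stood in a similar ratio to that of each partner. The ratio was 1.09 for CTCF over MBD2 at 3336 regions, and 1.14 for CTCF over MBD3 and 1.15 for CTCF over TET1 at 3337 regions each. Around these ratios the single regions had an SD of 0.31, 0.31 and 0.32 on the log2 scale. As a scale for this spread, the mean squared deviation from the ratio was divided by the value that counting noise gives in regions not selected by height. The quotient was 1.02 for CTCF with MBD2, 0.990 for CTCF with MBD3 and 1.04 for CTCF with TET1, and 0.898 to 0.966 for the pairs without CTCF. The rule chose the regions on these same pileups, and listing in all 4 lists trims low pileups, which can lower the quotient. A quotient near 1 is therefore a description and does not show that the ratio was constant.

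The same quotient at low-background CTCF regions with the partner but not all 3 was 0.813 for MBD2, 0.815 for MBD3 and 0.877 for TET1. Among low-background 4-protein regions whose 4 pileups summed to 240 or more, at 469 regions, the 6 quotients lay between 1.02 and 1.19, the highest being CTCF with TET1. Where the pileups summed to 400 or more, at 33 regions, CTCF with TET1 had 1.88 ± 0.41 and MBD2 with TET1 had 0.980 ± 0.20 (SE over regions). At raised background the 6 quotients lay between 2.16 and 6.01. There, regions summing to under 400 had 0.942 to 1.23 over the 6 pairs, and those summing to 400 or more had 3.46 to 10.2.

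**Figure D2:**
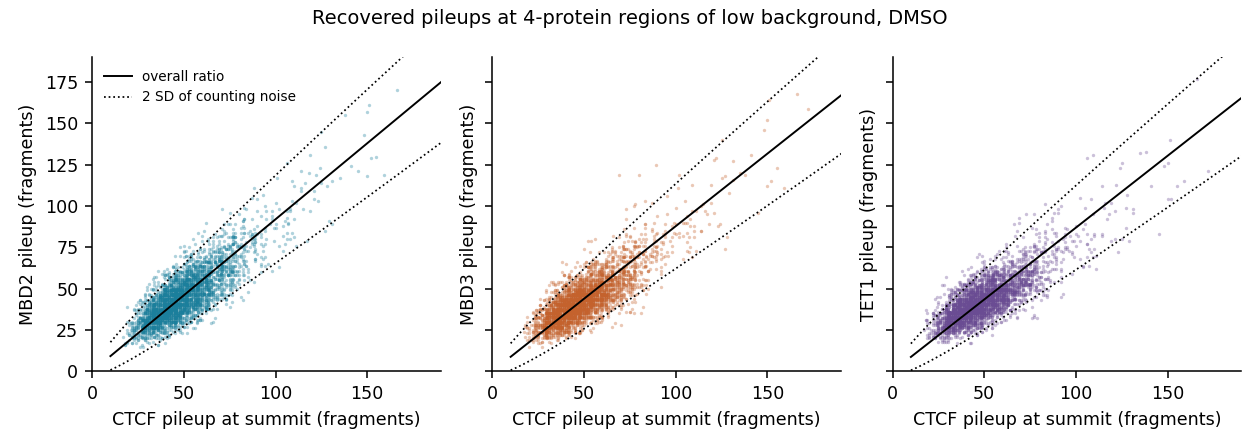
Pileup of MBD2, MBD3 and TET1 (vertical axes, fragments) against the pileup of CTCF (horizontal axes, fragments) at 4-protein regions of low background in DMSO, 1 point per region. The solid line is the overall ratio and the dotted lines stand 2 SD of counting noise from it; CTCF over the partner is 1.09 with MBD2, 1.14 with MBD3 and 1.15 with TET1. The regions were chosen on these same pileups.

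The summits of the 4 proteins lay almost on top of each other. The median distance from the CTCF summit was 10 bp for MBD2, 10 bp for MBD3 and 12 bp for TET1. Within 50 bp of the CTCF summit lay 94.4% of MBD2 summits (93.7 to 95.1%), 94.2% of MBD3 summits (93.5 to 94.9%) and 92.0% of TET1 summits (91.1 to 92.8%). No partner stood to one side in genome coordinates, since the median signed distance was 0 bp with MBD2 or MBD3 and 1 bp with TET1. Distances were not oriented by the CTCF motif, so a side relative to the motif cannot be read from them. Partners were as near to each other as to CTCF, with median distances of 10 to 12 bp. The fragments were selected at a length far above these distances, per the labels' protocols, so the summits do not resolve contacts within a site.

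All 4 summits together spanned a median of 23 bp, and 85.4% of the 4-protein regions had them within 50 bp. The span narrowed with signal. Over 4 equal classes of CTCF fold among low-background regions, lowest first, the median span was 38, 25, 21 and 19 bp. Where CTCF had more than 1 sub-peak, at 219 regions, the median span was 170 bp. CTCF regions with fewer than 3 partners had 93.9% of MBD2, 92.7% of MBD3 and 85.5% of TET1 summits within 50 bp. The rule used these same lists, and the 4-protein regions were taller in CTCF than the rest, so the shares of both sets are a description.

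**Figure D3:**
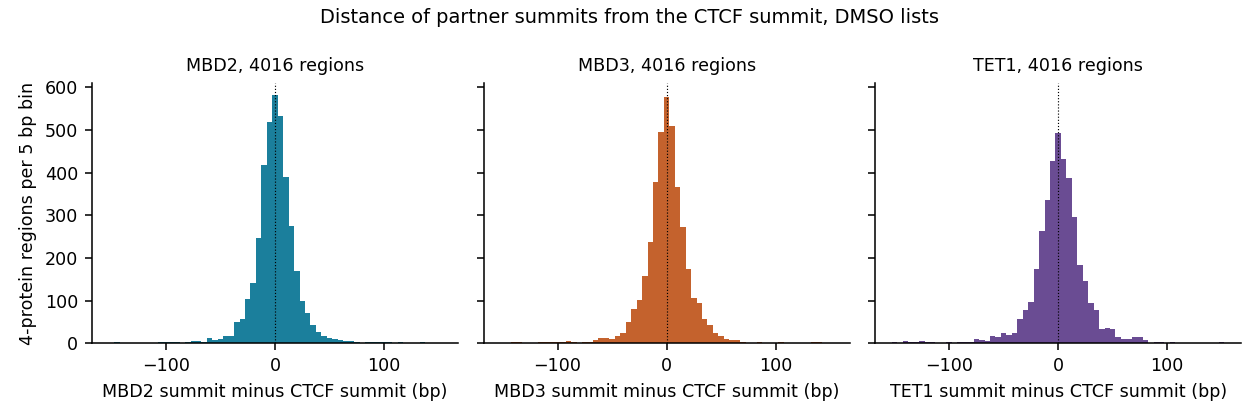
Number of 4-protein regions (vertical axis, per 5 bp bin) by the distance of the MBD2, MBD3 or TET1 summit from the CTCF summit in DMSO (horizontal axes, bp, shown to 150 bp on either side). Each partner has a single peak at 0, with a median distance of 10 bp for MBD2, 10 bp for MBD3 and 12 bp for TET1.

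Single regions show the range. The region with the highest smallest fold was chr9:11221-11614, where CTCF had a fold of 24.3, MBD2 21.2, MBD3 17.5 and TET1 17.0. Its 4 summits spanned 12 bp, and it was in no treated list. The other regions named as strong in all lists were chr15:102519417-102520036, chr16:60817-61224 and chr17:18965078-18965796, with CTCF folds of 24.96, 19.6 and 13.4 and TET1 folds of 12.6, 12.3 and 11.05. Of these 4 regions, the one on chromosome 17 was the only one whose CTCF background could be solved, and it was low. Those on chromosomes 9 and 16 lay within 100 kb of the start of their chromosome. Distances to the far end of a chromosome are not given for these regions, so chr15:102519417-102520036 may also lie near an end.

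Regions that leaned most to 1 protein were picked by the ratio of its fold to the mean of the other 3. Since each list has its own scale, this orders regions within a list and says nothing of one protein against another. CTCF led most at chr7:141485766-141486077, with a fold of 10.1, against 5.15 (MBD2), 3.98 (MBD3) and 5.04 (TET1). MBD2 led most at chr19:4567614-4567954, with a fold of 11.9, against 6.61 for CTCF, 4.70 for MBD3 and 4.001 for TET1. MBD3 led most at chr3:98320993-98321207, with 6.30 against 4.53 for CTCF, 4.003 for MBD2 and 3.74 for TET1. TET1 led most at chr1:225662663-225663028, with 8.02 against 7.64 for CTCF, 4.97 for MBD2 and 4.16 for MBD3. None of these 4 regions was in a treated list.

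Measured in bp, few regions lay at the edge of the rule. The smallest overlap of a 4-protein region with a partner was 6 bp, 3 regions had under 50 bp, and the median was 217 bp. With a −log10 q of 5 or more in every list, the region just inside was chr18:18516874-18517245, which shared 114 bp with its TET1 region and had a raised background. The region just outside was chr4:152026162-152026736, which had MBD2 and MBD3 and whose nearest TET1 region lay 21 bp away with a fold of 2.49. Among 3056 regions with 2 partners checked in this way, 2 had a listed region of the missing partner within 200 bp and 33 within 1 kb. Partner signal below the cutoff of a list was not seen, so nearness to that cutoff was not measured for these regions. Among 4-protein regions the TET1 −log10 q had a minimum of 1.32 and a 5th percentile of 3.02. With a −log10 q of 5 or more in every DMSO list, the count was 3204 in place of 4016.

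Under treatment most 4-protein regions were in no list. At least 1 of the 4 BPK25 lists held 591 of the 4016 (14.7%, 13.7 to 15.8%), against 2.58% of CTCF regions with fewer than 3 partners and 5.38% of all CTCF regions. At least 1 of the 4 IAA lists held 153 (3.81%, 3.26 to 4.45%), against 0.372% of those with fewer than 3 partners and 1.16% of all. In neither set were 3394 regions, or 84.5%, against 13052 of the 13424 CTCF regions with fewer than 3 partners, or 97.2%. The treated lists were not used by the rule, but the 4-protein regions were taller in CTCF than the rest. The treated lists were also far shorter than the DMSO ones, with 95 to 777 regions each. Their smallest backgrounds were 5.89 to 49.5% of those of the DMSO lists of the same antibody. The part of depth in the treated shares was not tested.

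Of the treated lists, TET1 under BPK25 held the largest number of 4-protein regions, and it was also the longest. It had 777 regions, against 510 for MBD2, 375 for CTCF and 374 for MBD3 under BPK25. The smallest backgrounds of these lists were 1.16, 1.86, 0.256 and 0.374 fragments, so the antibodies cannot be ranked by these counts. The BPK25 TET1 list is taken first. It held 449 of them (11.2%, 10.2 to 12.2%), against 1.65% of CTCF regions with fewer than 3 partners and 3.84% of all. MBD2 under BPK25 held 185 (4.61%), against 0.469% with fewer than 3 partners and 1.42% of all. CTCF under BPK25 held 152 (3.78%), against 0.521% and 1.27%. MBD3 under BPK25 held 132 (3.29%), against 0.447% and 1.10%. In all 4 BPK25 lists the share at 4-protein regions was above the share over all CTCF regions. The intervals of the 4-protein regions and of those with fewer than 3 partners did not meet, but they reflect the number of regions alone and are no test.

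TET1, the longest BPK25 list, often stood alone under BPK25, and more often so outside the 4-protein regions. Of the 449 4-protein regions in the TET1 list, 312 (69.5%) were in no other BPK25 list, against 209 of 221 listed CTCF regions with fewer than 3 partners (94.6%). At low background the shares were 81.2% and 95.8%, and at raised background 49.0% and 90.6%. All 4 BPK25 lists held 46 of the 4016, and 1 of the other 13424 CTCF regions. The share with TET1 stepped up with the number of DMSO partners, with 0.539% for none, 1.43% for 1, 2.93% for 2 and 11.2% for all 3.

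These counts differed by background. At low background 293 of 3337 4-protein regions were in the BPK25 TET1 list (8.78%, 7.87 to 9.79%), against 1.37% of low-background CTCF regions with fewer than 3 partners. The BPK25 MBD2 list held 79 (2.37% against 0.327%), the CTCF list 33 (0.989% against 0.122%) and the MBD3 list 23 (0.689% against 0.0898%). At raised background the shares were higher in both sets. The BPK25 TET1 list held 22.3% of 4-protein regions there, against 4.54% of CTCF regions with fewer than 3 partners and 10.9% of all. The CTCF list held 16.0%, against 4.54% and 8.63%, the MBD2 list 15.1%, against 1.97% and 6.65%, and the MBD3 list 14.1%, against 3.94% and 7.59%. Most of the 4-protein regions in the BPK25 CTCF, MBD2 and MBD3 lists were on raised or unsolved background, while most of those in the TET1 list were not.

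The BPK25 shares were also set side by side within classes of DMSO fold. CTCF regions of low background on chromosomes 1 to 22 and X that had a DMSO TET1 region were split into 4 equal classes of TET1 fold. In the lowest class, 6.10% of the 4-protein regions (4.50 to 8.23%) were in the BPK25 TET1 list, against 1.44% of those lacking MBD2 or MBD3 (0.758 to 2.71%). In the highest class the shares were 14.1% (12.1 to 16.4%) and 1.27% (0.433 to 3.67%). The median TET1 folds of the groups in these classes were 2.74 and 2.72, and 4.83 and 4.64. Over all 4 classes 291 of 3330 4-protein regions were listed, against 21 of 1727 others. For MBD2, matched in the same way on MBD2 fold, the shares were 4.66% against 0.506% in the lowest class and 2.87% against 0.270% in the highest. For MBD3 the counts were small, with 22 of 3330 against 4 of 3621, and 19 of the 22 lay in the highest class. The classes match on the DMSO fold of 1 protein, which the rule used, and CTCF fold and width were not matched. The part of DMSO signal in these shares was not tested.

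Among the 4-protein regions of low background themselves, DMSO fold ordered the shares only in part, over 5 equal classes. The BPK25 TET1 list held 5.83% of the lowest class by TET1 fold, 8.11% of the middle class and 16.5% of the highest. The BPK25 MBD2 list held 3.45% of the lowest class by MBD2 fold, 0.756% of the middle one and 4.50% of the highest. For CTCF under BPK25 the highest class by CTCF fold had 2.86%, and the other 4 had 0.149 to 0.751%.

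The listed TET1 summits lay near the DMSO CTCF summit. A treated region counted only if it overlapped the DMSO CTCF region, so this nearness is in part set by the count. At low background the BPK25 TET1 summit lay a median of 19 bp from the DMSO CTCF summit, and 81.6% lay within 50 bp. The BPK25 MBD2 summits lay a median of 35 bp away, with 57.0% within 50 bp. Where TET1 was listed under BPK25 at low background, the TET1 pileup was 0.313 times that in DMSO, with an SD of 0.41 on the log2 scale over 293 regions. For MBD2 the ratio was 0.421 and the SD 0.67 over 78 regions. The depth of the libraries is unknown, so these ratios hold any difference in depth. As a scale, the smallest background of the BPK25 list was 20.4% of that of the DMSO list for TET1 and 49.5% for MBD2. No loss or gain of binding can be read from the ratios.

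**Figure D4:**
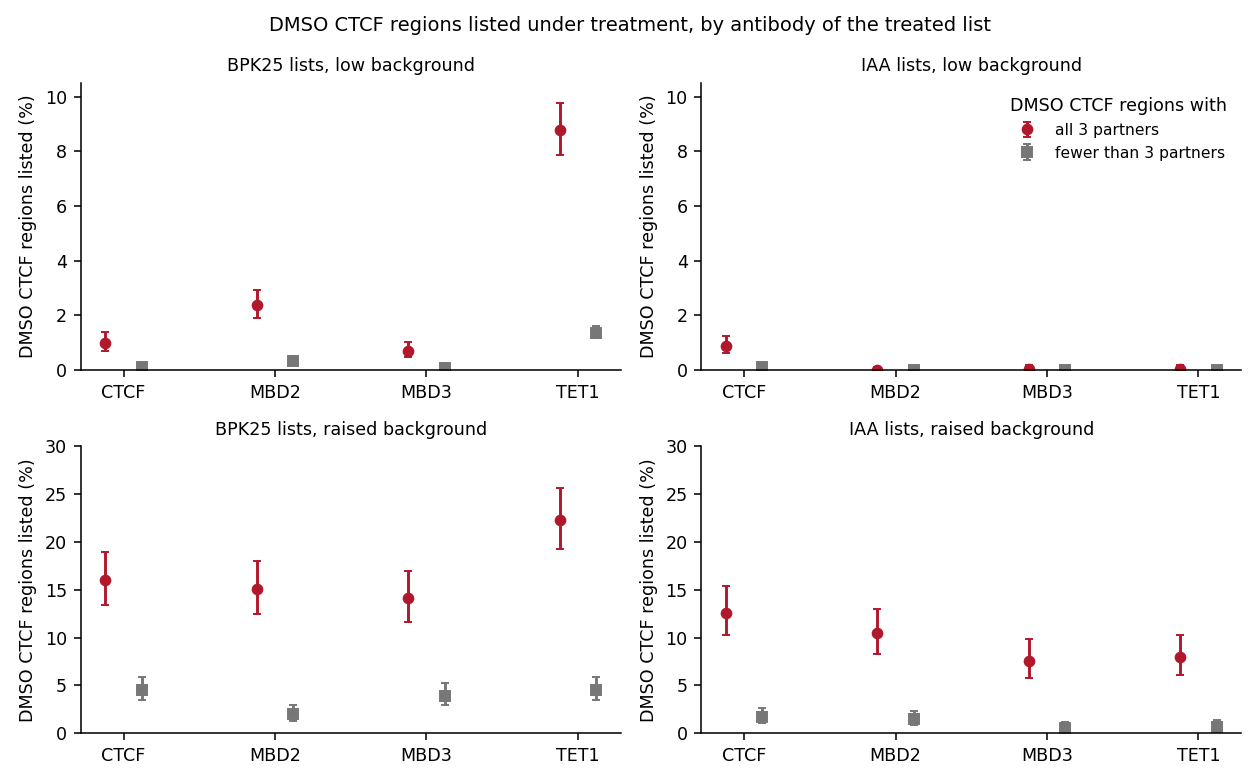
Share of DMSO CTCF regions that overlap a region of each BPK25 or IAA list (vertical axes, %, with a different scale in each row), for regions with all 3 partners (red) and with fewer (grey), at low and raised background. Bars are 95% Wilson intervals over regions; at low background TET1 under BPK25 stands at 8.78% against 1.37%, and MBD2 under IAA holds none of the 4-protein regions.

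The IAA lists held fewer of the 4-protein regions, mostly on raised or unsolved background. The IAA CTCF list held 132 (3.29%), against 0.253% of CTCF regions with fewer than 3 partners and 0.952% of all. The MBD2 list held 89 (2.22%), against 0.156% and 0.631%. The MBD3 list held 68 (1.69%), against 0.0670% and 0.442%, and the TET1 list 71 (1.77%), against 0.0670% and 0.459%. At low background 29 of 3337 were in the IAA CTCF list (0.869%, 0.606 to 1.25%), 0 in the MBD2 list (0 to 0.115%), 1 in the MBD3 list and 1 in the TET1 list. Over all 15586 low-background CTCF regions the IAA shares were 0.263% for CTCF, 0.00642% for MBD2 and 0.0128% for MBD3 or TET1, and the 4-protein counts of 0 or 1 in these 3 lists cannot be told apart from that level. Of the 89 regions in the MBD2 list, 68 had a raised background and the remaining 21 could not be solved.

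The regions in all 4 lists of a treatment were mostly of raised or unsolved background. Of the 46 such regions under BPK25, 35 had a raised background, 4 were unsolved and 7 had a low one. Of the 51 under IAA, 34 were raised, 17 unsolved and none low. These were 1.15% and 1.27% of the 4-protein regions. Under either treatment 1 CTCF region with fewer than 3 partners was in all 4 lists, or 0.00745%. Under BPK25 the 3 of highest CTCF fold in all 4 lists, all of low background, were chr9:998543-999029, chr7:302891-304064 and chr17:18965078-18965796. At the first of these TET1 had a fold of 17.7 under BPK25 and 8.78 in DMSO. CTCF had 9.45 under BPK25 and 15.4 in DMSO, MBD2 11.01 and 12.0, and MBD3 7.85 and 13.9, each fold being relative to the background of its own list. The region on chromosome 17 was also in the IAA CTCF list, with a fold of 9.53. Under IAA the 3 of highest CTCF fold in all 4 lists were chr7:23995-24462, chr16:46424633-46425219 and chr19:27731953-27732329, of which the first 2 had a raised background and the third could not be solved. The first, chr7:23995-24462, was also in all 4 BPK25 lists. Their IAA CTCF folds were 3.03, 1.58 and 2.38, against DMSO CTCF folds of 3.46, 2.61 and 2.16.

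Just 18 of the 4016 regions (0.448%) were in all 12 lists. The 4 DMSO lists are met by rule, so this count rests on the treated lists. Of the CTCF regions with fewer than 3 partners, 0 were in all treated lists. All 18 had a raised or unsolved background, 17 had a DMSO CTCF fold under 3, and 8 lay on contigs outside chromosomes 1 to 22 and X. The exception in fold was chr7:23995-24462, with a DMSO CTCF fold of 3.46.

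The 4-protein regions were not evenly spread over the CTCF regions. They made up 15.8% of the CTCF regions of chromosome 9 (13.0 to 19.2%) and 30.5% of those of chromosome 17 (27.6 to 33.5%), the lowest and highest of 23 chromosomes. The share followed the local background of the CTCF regions, with a Spearman correlation over chromosomes of 0.75, and their pileup, with 0.80, but not their fold, with −0.38. These are descriptions over 23 chromosomes that share all libraries. Among CTCF regions of low background alone the correlation with background was 0.82.

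**Figure D5:**
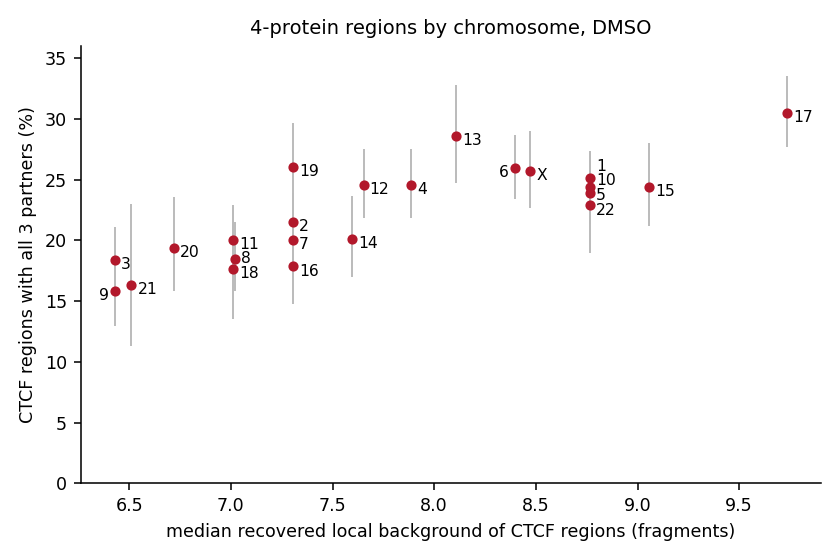
Share of DMSO CTCF regions that are 4-protein regions (vertical axis, %, with 95% Wilson intervals) against the median recovered local background of the CTCF regions (horizontal axis, fragments), 1 labelled point per chromosome. Chromosome 9 stands lowest at 15.8% and chromosome 17 highest at 30.5%.

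A 4-protein region was more often followed by another than other CTCF regions were, by most at short range. The next CTCF region along the chromosome was a 4-protein region after 25.9% of 4-protein regions (24.6 to 27.3%) and after 22.1% of other CTCF regions (21.4 to 22.8%). With the neighbour under 1 kb away the shares were 45.9% (37.3 to 54.7%) and 28.2% (22.4 to 34.9%). From 1 to 10 kb they were 32.2% (28.4 to 36.3%) and 24.3% (22.1 to 26.6%). From 10 to 100 kb they were 24.7% (22.7 to 26.8%) and 23.6% (22.5 to 24.7%), and at 100 kb or more 23.6% (21.6 to 25.8%) and 19.9% (18.9 to 21.0%). Regions are not replicates, so these intervals are no test. The median distance between successive 4-protein regions was 305 kb, against 77.4 kb between CTCF regions of any kind.

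Close to chromosome ends the share was higher. Within 100 kb of an end, taken from the outermost listed regions, 30 of 70 CTCF regions were 4-protein regions (42.9%, 31.9 to 54.5%), against 22.9% of those over 1 Mb away. From 100 kb to 1 Mb the share was 23.0%, close to that over 1 Mb away. Those 30 regions had a median CTCF fold of 7.48, 21 of them had a low background, and 16 were in at least 1 BPK25 list. Of the 3878 4-protein regions over 1 Mb away, with a median CTCF fold of 5.33, 523 were in such a list. The share of other CTCF regions near ends was not counted. Positions of the 4-protein regions relative to genes and motifs were not analysed here, because no genome of the build of the files was used.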

How the data were processed

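CTCF, MBD2, MBD3 and TET1 were profiled by ChIP-seq in HEK293T cells under BPK25, IAA and DMSO, with 36 immunoprecipitated and 9 input libraries. Groups follow the treatment and antibody in the labels. The labels do not say if the replicates are separate cultures. The build was hg19, per the submitters' processing notes, which also name MACS2 2.1.2 and Bowtie2 2.3.4 without caller settings. The deposited lists, called by the authors on replicates 1 to 3 pooled, give the fold enrichment of each peak as a linear ratio. They also give the −log10 of its p-value and q-value, as the authors' caller wrote them, and its summit offset. They were used to describe, rank and filter regions. Folds of several lists given side by side are each on the scale of their own list.

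Sub-peaks of 1 region were merged, keeping the values of the one with the largest −log10 p. The pileup and the local background were solved from the fold, read as pileup plus 1 over background plus 1, and from the −log10 p, read as a Poisson upper tail, to within 0.02%. This gave 53614 of 53743 regions, and a −log10 p above 150 was left unsolved. True library depth is unknown. Pileup ratios were chosen after seeing the data.

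Named regions are members with a −log10 q of 5 or more in the 4 DMSO lists, on chromosomes 1 to 22 and X except 8. They are the 4 of highest smallest fold, the 2 that lean most to each protein, the 3 of highest CTCF fold in most lists under each treatment, and the 3 just inside and just outside the rule. The text gives those that carry a result. The 4-protein regions, lists and rules were chosen with earlier results of these data known. Gene position, gene lists, base content and the CTCF motif were planned and not analysed, since the reference tables were of GRCh38 and no hg19 genome was used here. Alternatives were a 50% overlap, summits within 150 bp, a −log10 q of 5, chromosomes 1 to 22 and X, shortened MBD2 and MBD3 lists, and low background alone. The steps were tested on simulated data. Python 3.11.15, numpy 2.4.6, pandas 2.3.3, SciPy 1.17.1 and matplotlib 3.10.9 were used. With 1 pooled list per group, no difference between treatments or antibodies could be tested.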

Additional observations from a re-analysis of the deposited data

How the results depend on the processing

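The number of 4-protein regions stayed within 1.5 times the reported 4016 under every alternative run, with 2902 regions when the MBD2 and MBD3 lists were shortened to the TET1 length and 3997 when an overlap of 50% of the shorter region was asked. Of 117 alternative values, 61 lay within the interval of the reported value or, for the count, within 1.5 times of it. The other 56 lay outside. Values were sorted by size alone, and changes of direction were not counted. The 50% overlap moved none. With low background alone, the BPK25 lists held 0.989% (CTCF), 2.37% (MBD2), 0.689% (MBD3), 8.78% (TET1) and 10.4% (any), and in the IAA lists 0.869% for CTCF, 0 for MBD2, 0.0300% for MBD3, 0.0300% for TET1 and 0.899% for any. Summit distances were then 11 bp for MBD3 and 13 bp for TET1, and 23.4% of the regions were followed by another. With summits within 150 bp, the BPK25 lists held 3.17% (CTCF), 3.19% (MBD2), 2.75% (MBD3), 10.2% (TET1) and 13.3% (any). The IAA lists then held 2.54% (CTCF), 1.62% (MBD2), 1.28% (MBD3), 1.36% (TET1) and 2.96% (any), with the TET1 distance 11 bp and the share followed by another 24.6%. On chromosomes 1 to 22 and X alone, BPK25 gave 2.97% for CTCF, 3.93% for MBD2 and 2.54% for MBD3, and IAA gave 2.67% for CTCF, 1.74% for MBD2, 1.26% for MBD3, 1.23% for TET1 and 3.12% for any. With a −log10 q of 5 or more in the DMSO lists, BPK25 gave 12.5% for TET1 and 15.9% for any, and the distances were 9 bp for MBD3 and 10 bp for TET1. With it in the treated lists, BPK25 gave 2.59% for CTCF, 3.11% for MBD2, 2.39% for MBD3, 7.25% for TET1 and 10.1% for any, and IAA 2.59% for CTCF and 3.06% for any. With shortened lists, BPK25 gave 13.2% for TET1 and 16.5% for any, the distances were 8 bp for MBD2, 8 bp for MBD3 and 10 bp for TET1, 18.9% of CTCF regions within 1 Mb of a chromosome end were 4-protein regions, against 27.0% as reported, and 20.2% of 4-protein regions were followed by another, against 25.9%; both are to be read against 2902 in place of 4016 of 17440 CTCF regions. The cause of these differences was not tested. No paired analysis was possible because the lists pool the replicates, and for the same reason no replicate could be left out. Alternatives on the motif, base content and gene starts were not run.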

Other observations

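Outside chromosomes 1 to 22 and X, 45 of 188 DMSO CTCF regions were 4-protein regions (23.9%, 18.4 to 30.5%). Chromosome Y is included, with 2 of 14. A pair of contigs held most of the 45. On chrUn_gl000226, 13 of 18 CTCF regions had all 3 partners (72.2%, 49.1 to 87.5%), and all 13 were listed both under BPK25 and under IAA. On chr9_gl000199_random, 23 of 69 had all 3 partners (33.3%), 22 of the 23 were in a BPK25 list and 13 in an IAA list. Over all CTCF regions 5.38% were in a BPK25 list and 1.16% in an IAA list. The shares of the other CTCF regions of these contigs were not counted. All 4-protein regions of this pair of contigs had a raised background, with median CTCF folds of 1.62 on the first contig and 1.86 on the second.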
